A study of Drosophila melanogaster with 2 samples.

Results

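The 37 genes described here encode the Wnt signalling pathway and the planar polarity proteins of Drosophila melanogaster. They were chosen by name, as a list of pathway genes, with earlier results of these data known. All 37 were found among the 13945 protein-coding genes of the dm6 annotation. Their binding by CG15696, a homeodomain protein, was read from chromatin immunoprecipitation sequencing (ChIP-seq) of whole embryos aged 2 to 8 h. There is 1 group, of mixed-sex transgenic embryos that carry CG15696 fused at its C-terminus to green fluorescent protein (GFP), precipitated with an antibody against GFP. It has 2 biological replicates, numbered 1 and 3, and both replicate libraries were set against the same control alignment. The chromatin was sheared by sonication to 200 to 800 bp. The labels do not say what drives the transgene, an untagged group was not analysed here, and no comparison between groups was made. Whole embryos mix all cell types, and a site bound strongly in few cells cannot be told apart from one bound weakly in many.

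Sites are the 5354 peaks that passed the authors' filter on the irreproducible discovery rate (IDR), which scores how well peak ranks hold up from replicate to replicate. The signal printed for each is the authors' own, on an unstated scale. It ran from 134 to 7767 over the list, and rank 1 is the highest. A gene was counted as having a site when a summit fell inside its territory, meaning the gene body plus 2 kb on either side. All values below are descriptions of this 1 group, without a test over samples. The read depth behind them is unknown.

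Wnt proteins are secreted, lipid-modified ligands that bind Frizzled receptors and the co-receptor arrow. In their absence a cytoplasmic complex of Axin, APC and the kinases shaggy and casein kinase I marks armadillo, the fly beta-catenin, for destruction. With a ligand present, dishevelled blocks that complex, and armadillo joins pangolin, the fly TCF, to activate genes that groucho otherwise holds repressed. In the embryo wingless maintains segment borders and patterns the epidermis. Planar polarity uses frizzled and dishevelled together with Van Gogh, prickle and starry night to orient cells within an epithelium.

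The sequences at the summits of the sites on which the account turns were mostly AT-rich and held few of the motifs searched. Shown are 151 bases centred on the strongest site of fz, nkd, dlp, fz2, Wnt6, wg and gro, and on the strongest site between Wnt4 and wg. They are read 5′ to 3′ on the plus strand of the RefSeq copy of the Release 6 genome (dm6). Capitals mark a homeodomain core (TAATTA, at nkd) and a TCF core (CTTTGAT, at gro on the opposite strand). The other 6 windows hold none of the 5 motifs searched.
fz (chr3L:14303991-14304141): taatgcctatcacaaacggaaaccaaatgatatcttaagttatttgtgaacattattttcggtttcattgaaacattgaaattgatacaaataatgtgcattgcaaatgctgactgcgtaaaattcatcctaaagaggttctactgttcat
nkd (chr3L:19042603-19042753): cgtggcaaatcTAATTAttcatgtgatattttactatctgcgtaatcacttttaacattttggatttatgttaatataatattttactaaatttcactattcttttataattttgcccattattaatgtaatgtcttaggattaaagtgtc
dlp (chr3L:14635306-14635456): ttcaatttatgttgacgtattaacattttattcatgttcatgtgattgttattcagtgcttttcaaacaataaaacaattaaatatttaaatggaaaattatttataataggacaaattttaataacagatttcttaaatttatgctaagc
fz2 (chr3L:19179572-19179722): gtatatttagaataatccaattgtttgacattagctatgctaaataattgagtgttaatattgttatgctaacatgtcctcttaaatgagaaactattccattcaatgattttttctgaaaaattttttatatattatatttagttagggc
Wnt6 (chr2L:7339703-7339853): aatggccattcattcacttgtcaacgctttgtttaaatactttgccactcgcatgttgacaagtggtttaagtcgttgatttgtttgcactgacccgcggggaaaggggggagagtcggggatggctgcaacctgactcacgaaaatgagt
between Wnt4 and wg (chr2L:7296030-7296180): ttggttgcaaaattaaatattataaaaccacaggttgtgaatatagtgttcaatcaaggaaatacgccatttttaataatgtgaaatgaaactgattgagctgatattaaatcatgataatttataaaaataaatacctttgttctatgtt
wg (chr2L:7311663-7311813): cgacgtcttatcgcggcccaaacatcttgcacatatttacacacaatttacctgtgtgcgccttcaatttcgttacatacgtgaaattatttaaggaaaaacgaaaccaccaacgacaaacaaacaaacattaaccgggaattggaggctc
gro (chr3R:26042436-26042586): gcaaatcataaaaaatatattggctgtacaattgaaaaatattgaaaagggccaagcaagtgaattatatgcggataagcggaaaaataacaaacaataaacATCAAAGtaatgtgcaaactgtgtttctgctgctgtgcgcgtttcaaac
Over these windows the GC content was 31.1% at fz, 23.8% at nkd, 20.5% at dlp and 23.8% at fz2. It was 47.7% at Wnt6, 24.5% between Wnt4 and wg, 41.1% at wg and 33.8% at gro. The site in Wnt6 had the highest GC content of these 8 windows.

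Most of the 37 listed Wnt and polarity genes had a site, and several held many. Of the 37 genes, 28 (75.7%, 95% Wilson interval 59.9 to 86.6%) had at least 1 site, where 37.2% of all protein-coding genes did. These genes are long, with a median body of 14150 bp, and long genes hold more sites. Among the 200 protein-coding genes nearest in length to each member, a mean of 54.3% had a site, which corresponds to 20.1 of 37. Together the members held 88 distinct sites, or 2.38 per gene, against 1.16 per gene among genes of similar length. Neighbouring summits were counted as separate sites, the closest being 202 bp apart in dlp, 210 bp in arr and 242 bp in Wnt4. The chromatin was sheared to 200 to 800 bp, so whether such neighbours are separate binding sites cannot be told. No site lay in the territories of more than 1 member.

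Of the 37 genes, 9 held most of the sites. These were fz, fz2, dlp, arr, Wnt4, nkd, fz3, dally and gish, each with 4 or more sites, and together they held 56 of the 88. Of all protein-coding genes 1.81% had 4 or more sites, and from genes of similar length 2.77 members would have. When only sites with a peak within 100 bp in both replicates were counted, 7 members had 4 or more, without Wnt4 and gish. No expected number was made for that setting. The glypican gene dlp held 9 sites in 39009 bp, and among the 200 genes nearest to it in length only 1 held as many. The frizzled genes fz and fz2 held 10 and 9 sites in bodies of 94297 and 94399 bp. Among the 200 genes of similar length 12 held at least as many as fz and 15 at least as many as fz2. For dally, with 4 sites, 42 of 200 held as many or more, so its number is within the usual range for its length. Which genes these are depends on how sites are given to genes. When each site was given only to the gene of the nearest start, fz had 3 sites in place of 10, arr 1 in place of 6, dlp 4 in place of 9 and dally 0 in place of 4. On that basis wg had 6 in place of 1 and drl 5 in place of 3. The genes with 4 or more were then wg, Wnt4, fz2, fz3, drl, dlp, nkd and gish, or 8 of 37, against 1.83% of all protein-coding genes and 2.26 expected from genes of similar length. By the territory rule, the remaining members with a site comprised 8 genes with 2 or 3 sites and 11 genes with 1.

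**Figure D1:**
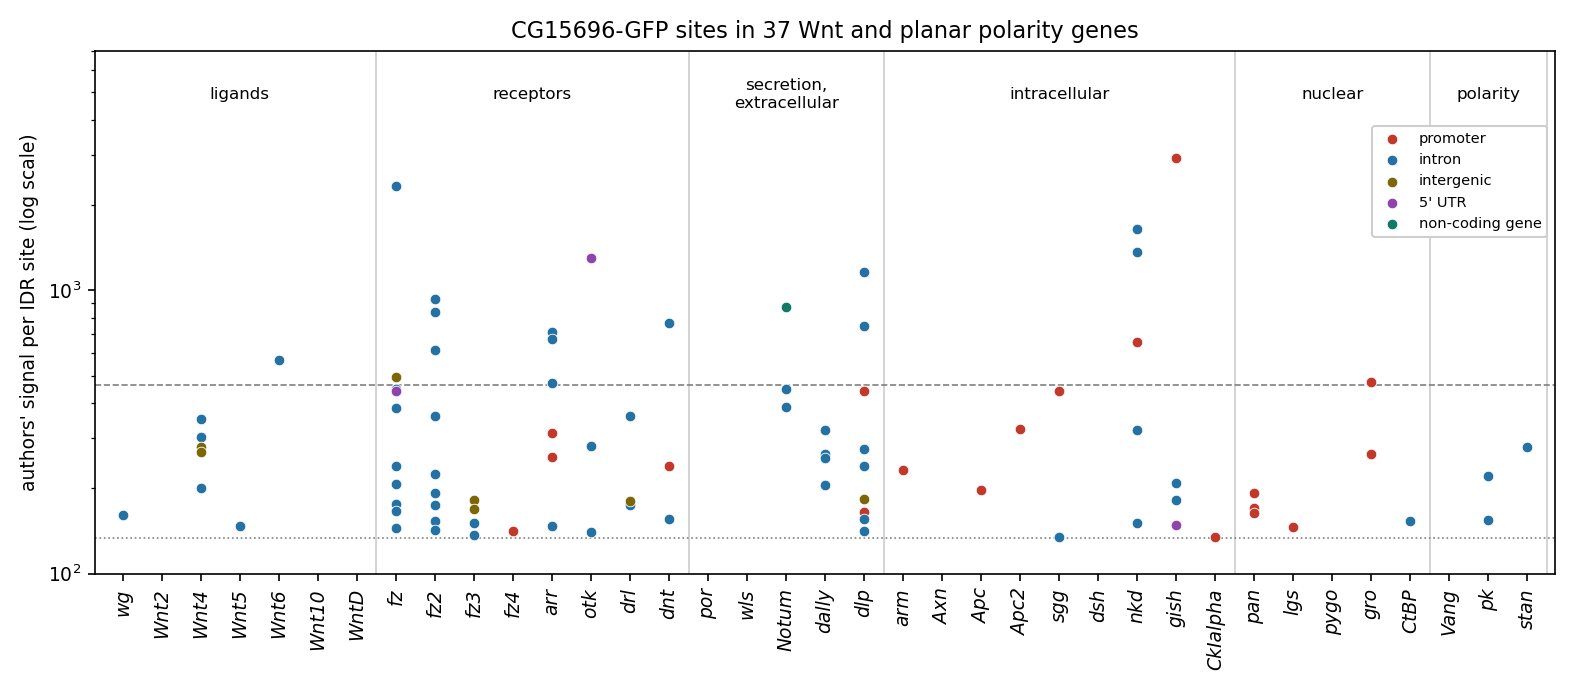
Authors' signal (log scale) of each IDR site in the territories of 37 genes, ordered by role and coloured by the annotation at the summit. The dashed line is the signal of the site ranked 1338 and the dotted line the lowest signal in the list. Only gish, fz, nkd, otk and dlp hold a site above a signal of 1000, and 9 genes have none.

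A site among the 1338 of highest signal lay in 11 of the 37 genes, against 12.7% of all protein-coding genes and 7.74 of 37 expected from genes of similar length. These 11 were Wnt6, fz, fz2, arr, otk, dnt, Notum, dlp, nkd, gish and gro. As a class, however, the members' sites were not stronger than others. Their median signal was 239, against 259 for all 5354 sites, and 21.6% of them were among the 1338 strongest, against 25% of all sites by construction.

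**Figure D2:**
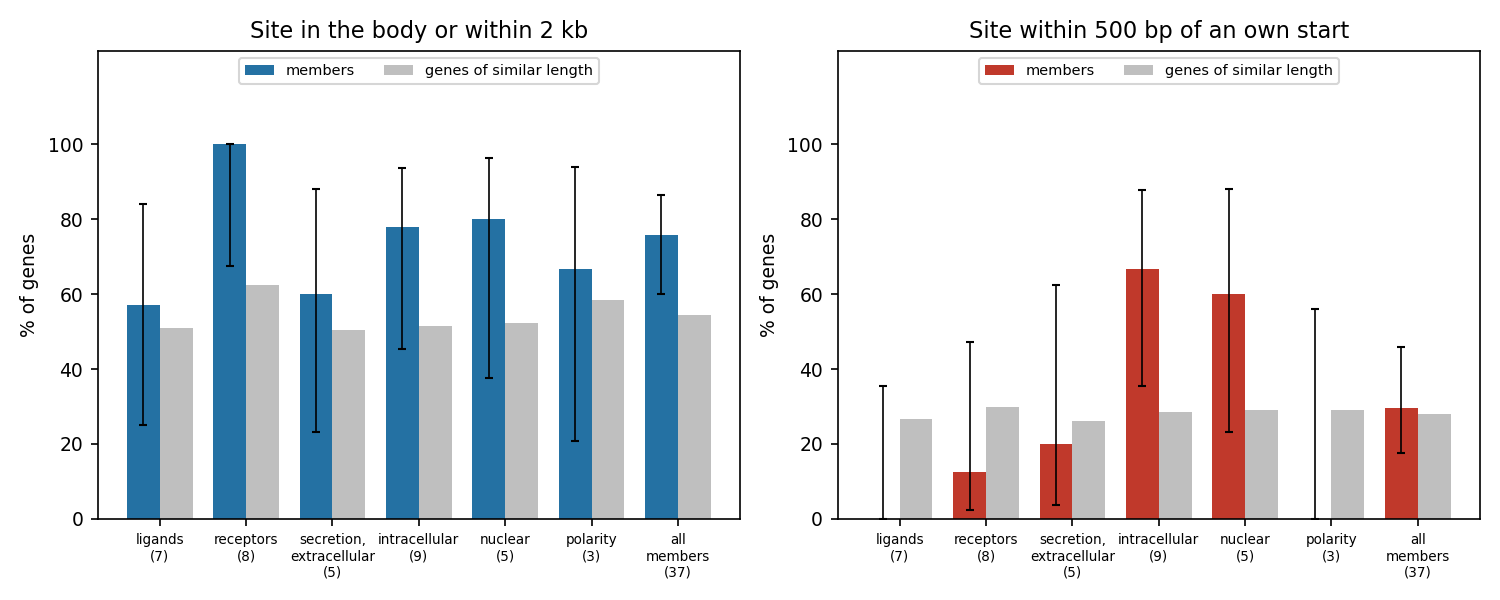
Percent of genes with a site in their territory (left panel) and within 500 bp of an own transcription start (right panel), by role with the number of genes in brackets. Coloured bars are the members with 95% Wilson intervals, and grey bars the mean over the 200 genes nearest in length to each. Receptors reach 100% in the left panel with 12.5% in the right, and intracellular genes 77.8% and 66.7%.

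Among the 7 ligand genes, 4 had a site (57.1%) against 3.57 expected from genes of similar length. Wnt4, which encodes a Wnt ligand, held 5 sites, all of moderate signal. Its strongest, at 18872 bp from the start in the first intron, had a signal of 352.6 (rank 1887), with 80.2 in replicate 1 and 266 in replicate 3. It lies 787 bp from the start of CG31909, a gene nested there. A pair of Wnt4 sites lay upstream, 614 and 856 bp from the start, with signals of 268 and 280. Of these, the one at 614 bp had no peak within 100 bp in the list of replicate 1.

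Wnt6 had 1 site, the strongest of any ligand gene, in the first intron at 6064 bp from the start. Its signal was 567 (rank 1018), with 314 in replicate 1 and 253 in replicate 3, so replicate 1 was the higher here, unlike at most sites. wg, the principal ligand of the embryonic epidermis, had 1 weak site within its territory, in the second intron (signal 160.6, rank 4414). It had 71.6 in replicate 1 and 90.7 in replicate 3. Wnt5, a ligand of the receptor derailed in axon guidance, had 1 site of signal 147 (rank 4866), 1937 bp upstream and inside an intron of its neighbour Ggt-1.

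The territory rule leaves out most of the sites around wg. Wnt4, wg, Wnt6 and Wnt10 lie side by side on 2L, within 126.1 kb from 7253419 to 7379528 (dm6). This stretch held 14 sites, or 111 per Mb, against 43.8 per Mb over arm 2L and 40.0 per Mb over all arms. Of the 14, 7 lay between Wnt4 and wg, outside the territories of both. The strongest of them, 11054 bp upstream of the wg start, had a signal of 904.8 (rank 481), with 299 in replicate 1 and 603 in replicate 3. Others upstream of wg lay at 13511 bp (signal 511, rank 1195), 11945 bp (signal 410.3, rank 1561) and 4222 bp (signal 253, rank 2743). The stretch was singled out after its values were seen. Nearer to Wnt4, a site 4447 bp upstream of its start had a signal of 579.5 (rank 992), with 109 in replicate 1 and 474 in replicate 3. By nearest start, 5 of the 7 belonged to wg and the other two to Wnt4.

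**Figure D3:**
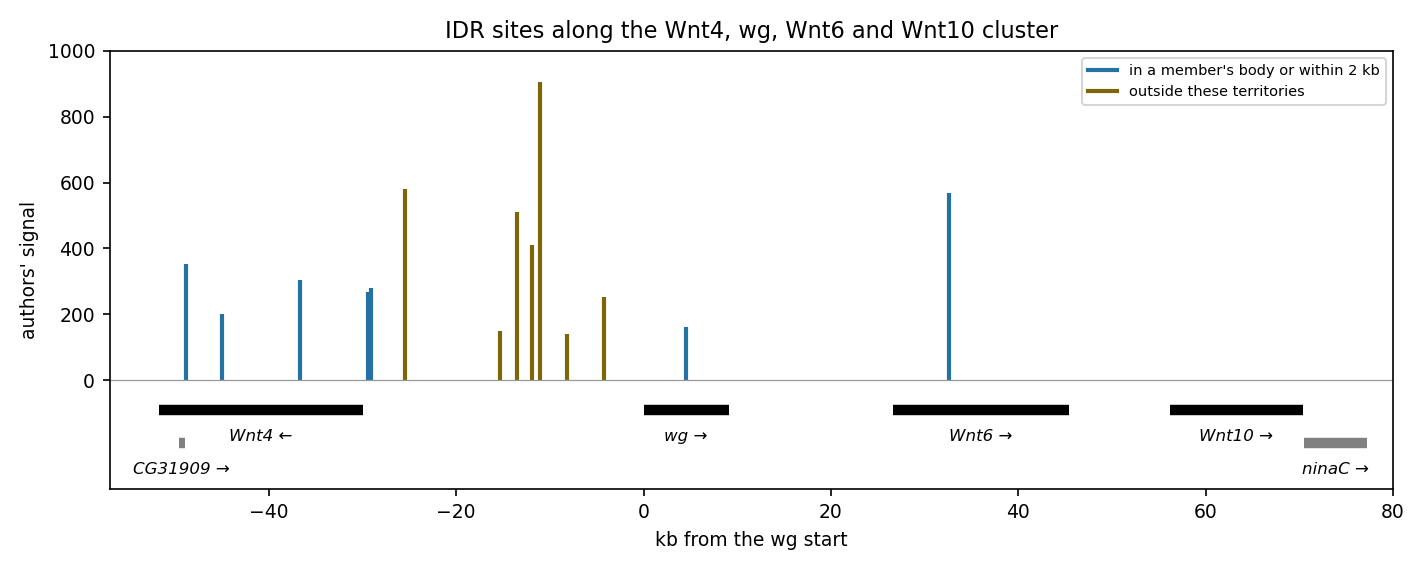
Authors' signal of the IDR sites (vertical lines) along the Wnt4, wg, Wnt6 and Wnt10 cluster, as distance in kb from the wg start, with gene bodies as bars and arrows for their strand. Of 14 sites, 7 lie between Wnt4 and wg outside the territories of both, the strongest with a signal of 904.8, while Wnt10 has none.

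All 8 receptor genes had a site, against 5.00 expected from genes of similar length. Of these genes, 5 held a site among the 1338 strongest, against 2.09 expected. The strongest was in fz, which encodes the founding Frizzled receptor of both branches of the pathway. It had a signal of 2327 (rank 65), with 731 in replicate 1 and 1604 in replicate 3. It lay in the first intron, 29723 bp from the start, on 3L from 14303852 to 14304255. The site was nearer to the start of CG13482, at 25280 bp. Replicate 1 ranked it 86 and replicate 3 ranked it 58. The other 9 fz sites had signals of 144 to 494 and were spread over the 93810 bp from the first to the last. The site just past the start, at 514 bp in the 5' UTR, had a signal of 441.

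In fz2, which encodes the other main Wingless receptor, the 9 sites fell within 34210 bp and all lay in introns. The 3 strongest had signals of 933 (rank 458), 841 (rank 556) and 614 (rank 908). In replicate 1 they had signals of 324.5, 292 and 225, and in replicate 3 of 599, 547 and 391. Both replicates therefore gave these sites the same order. The remaining frizzled genes had weak sites only. fz3, itself a target of Wingless signalling, held 4 sites of signal 137 to 182, and the weakest of these ranked 22646 in replicate 1 and 5303 in replicate 3. The single site of fz4, which encodes the WntD receptor, had a signal of 142 and lay downstream of the gene, 134 bp from the start of CG4617.

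arr encodes the co-receptor related to LRP5 and LRP6. Its 6 sites fell within 12855 bp and had signals of 148 to 710. For 5 of the 6 the nearest start was that of CG43192, and 1 of those lay 357 bp from it. Its strongest site (rank 732) had 504 in replicate 3 and no peak within 100 bp in replicate 1. The next site, 210 bp away (signal 673, rank 794), was found in both, with 206 in replicate 1 and 465 in replicate 3. arr was the only receptor gene with a site within 500 bp of its own start, at 82 bp (signal 313, rank 2164).

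The remaining receptors belong to other kinds. otk encodes a protein related to the PTK7 co-receptor, and its strongest site lay in the 5' UTR, 539 bp from the start, with a signal of 1301 (rank 248). It had 539 in replicate 1 and 770.5 in replicate 3, ranks of 166 and 307. drl and dnt encode Ryk-type receptors. The strongest site of dnt (signal 768, rank 654) had 259 in replicate 1 and 498 in replicate 3. The strongest site of drl (signal 361, rank 1824) had 129 in replicate 1 and 227 in replicate 3. Both lay in the first intron, at 4889 and 6534 bp from the start.

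Of the 5 genes for secretion and extracellular handling of Wnt ligands, 3 had a site, against 2.52 expected from genes of similar length. Notum encodes an enzyme that removes the lipid of Wnt proteins. Its strongest site lay 1993 bp upstream, where 2 lncRNA genes, CR43949 and CR45998, overlap (signal 872, rank 514). It had 373 in replicate 1 and 502 in replicate 3. Another pair lay in the first intron at 2834 and 4052 bp, with signals of 388 and 447.5. dally and dlp encode glypicans, cell-surface proteoglycans that bind Wingless. In dally the 4 sites had signals of 205 to 322, and all 4 lay in the first intron within 7334 bp of each other. Each was nearer to the start of CG32026, a gene inside that intron, than to that of dally.

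dlp had the most sites after fz, level with fz2. The strongest, at 2780 bp from the start in the first intron, had a signal of 1161 (rank 307), with 489 in replicate 1 and 678 in replicate 3. The next, at 33534 bp in the third intron, had a signal of 749 (rank 677), with 303 in replicate 1 and 444 in replicate 3. This second site was nearer to the start of CG43121, at 6302 bp. A pair of sites 202 bp apart lay just upstream of the start. The stronger of that pair (signal 441, rank 1428) lay 264 bp from the dlp start and 260 bp from that of RecQ5, so it cannot be given to either gene. The weaker (signal 165.5, rank 4283) ranked 22392 in replicate 1 and had no peak within 100 bp in replicate 3.

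Of the 9 genes of the cytoplasmic machinery, 7 had a site, against 4.62 expected from genes of similar length. The strongest site of all 37 genes was in gish, which encodes casein kinase I gamma. It had a signal of 2932 (rank 36), with 1076 in replicate 1 and 1859 in replicate 3. It lay 168 bp upstream of an alternative start inside the gene. nkd encodes an inhibitor of dishevelled that Wingless signalling induces. It held the sites of rank 151, 223 and 819, with signals of 1640.4, 1367 and 656. The first 2 lay in the first intron, at 2771 and 12110 bp from the start, and the third lay 189 bp upstream of the start. In replicate 1 these 3 had signals of 603, 451 and 202, and in replicate 3 of 1040.3, 918 and 463.

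The destruction complex genes had weaker sites, most of them at a start. sgg, the fly GSK3, had a site 196 bp upstream of one of its 11 starts (signal 441, rank 1429), with 189 in replicate 1 and 256 in replicate 3. Apc2 had a site 179 bp upstream (signal 323, rank 2070), with 106 in replicate 1 and 221 in replicate 3. The single site of Apc lay 129 bp upstream (signal 197, rank 3572). That of CkIalpha lay 49 bp upstream of one of its starts (signal 135, rank 5328), with 87.2 in replicate 1 and 45.2 in replicate 3. The single site counted for arm lay 1271 bp downstream of the gene and 126 bp from the start of mRpL16 (signal 232, rank 3010), a mitochondrial ribosomal protein gene.

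Of the 5 nuclear genes, 4 had a site, against 2.61 expected from genes of similar length, and 6 of their 7 sites were promoter sites. gro, the corepressor that acts with TCF, had the strongest, 130 bp upstream of an alternative start (signal 476, rank 1289). It had 201 in replicate 1 and 283 in replicate 3. The other gro site lay 101 bp upstream of a start (signal 264, rank 2624). pan, the TCF gene itself, had 3 sites of signal 164 to 193 on chromosome 4. The weakest of them had 27.6 in replicate 1 (rank 16216) and 144 in replicate 3 (rank 2942). The site of lgs, which encodes the BCL9 adaptor, was likewise uneven, with 33.4 in replicate 1 (rank 12243) and 126 in replicate 3 (rank 3363). CtBP, another corepressor gene, had 1 site of signal 154 in the first intron.

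Of the 3 genes that act in planar polarity alone among the members, 2 had a site, against 1.75 expected from genes of similar length. None had one among the 1338 strongest, against 0.705 expected. pk, which encodes the LIM-domain protein prickle, had 2 sites in a body of 72676 bp, of signal 221 (rank 3155) and 155 (rank 4591). stan, which encodes the atypical cadherin starry night, had 1 site in 47794 bp, of signal 281 (rank 2455), with 97.2 in replicate 1 and 184 in replicate 3. Vang, a membrane protein gene of the same system, had none. The 3 genes held 1.00 site per gene, against 1.58 among genes of similar length.

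The 9 genes without a site were Wnt2, Wnt10, WntD, por, wls, Axn, dsh, pygo and Vang. Most had weak peaks in the full pooled list of 30000. Axn, the scaffold of the destruction complex, came closest, with a peak of signal 128 at rank 5640, where the IDR list ends at rank 5354 with a signal of 134. The best pooled peaks of Wnt10 (rank 7586) and of wls (rank 10013), which carries Wnt proteins to the surface, were weaker. Those of dsh (rank 13204), of por (rank 15292), the acyltransferase of Wnt ligands, and of pygo (rank 15408), the armadillo cofactor, were weaker again. The best peak of Vang ranked 26601. Wnt2 and WntD had no peak in any of the pooled and replicate lists. WntD (1147 bp) and por (2334 bp) are short, and 22.5% of the genes nearest in length to WntD and 34.0% of those nearest to por had a site.

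The members' sites lay mostly in introns and away from starts. A promoter site is one with its summit within 500 bp of any protein-coding start. Of the 88 sites, 19 (21.6%, 95% Wilson interval 14.3 to 31.3%) were promoter sites, against 41.9% of all 5354 sites. Among sites of genes of similar length the share was 34.9%. The interval treats sites as independent, although 9 genes held 56 of the 88. Introns held 58 (65.9%), against 34.0% of all sites. None lay in a coding exon. Their median distance to the nearest start was 2708.5 bp, against 954.5 bp for all sites. Relative to the nearest start of the member itself the median was 4734 bp, and 30 sites lay over 10 kb away. Of the 65 sites that lay in an intron of the longest transcript of the member, 34 were in the first. For 26 of the 88 sites the nearest start belonged to another gene. By the territory rule every member site lies in or near a gene, and 7.95% of them were intergenic, against 19.8% of all sites. The intron share and the distances were not set against sites of genes of similar length. How far gene length and the territory rule account for these contrasts with all sites was not tested.

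Genes for ligands, receptors and extracellular proteins seldom had a site at their own start, and genes for intracellular and nuclear proteins often did. A site lay within 500 bp of an own start in 11 of 37 members, near the 10.4 expected from genes of similar length and set against 21.4% of all protein-coding genes. Only arr and dlp of the 20 ligand, receptor and extracellular genes had one (10%, 95% Wilson interval 2.79 to 30.1%), against 5.54 expected. Of the 14 intracellular and nuclear genes, 9 did (64.3%, 95% Wilson interval 38.8 to 83.7%), against 4.01 expected. These were Apc, Apc2, sgg, nkd, gish, CkIalpha, pan, lgs and gro. Of these, Apc, pan, lgs and CkIalpha had weak sites only, with a highest signal of 197, 193, 146 and 135, below the median of 259 over all sites. The strongest own-start sites of arr (313) and dlp (441), and those of the other genes named, lay above that median. The joining of roles into these sets was made after the values were seen, and their difference was not tested.

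The number of starts moved with this difference. The 14 intracellular and nuclear genes had 3.14 annotated starts each and the 20 others 1.25, against 1.87 and 1.97 among genes of similar length. Its part in the result was not tested. Among genes with a single start, 3 of 5 intracellular and nuclear genes and 2 of 17 ligand, receptor and extracellular genes had a site there. From single-start genes of similar length 1.10 of the 5 and 3.61 of the 17 would have, and 17.0% of all single-start protein-coding genes did. The 500 bp limit also mattered for otk, at 539 bp, for fz, at 514 bp, and for Wnt4, at 614 bp, which are all among the 20. It mattered as well for the polarity gene pk, at 678 bp, and for the nuclear gene CtBP, at 879 bp. With a window of 1000 bp, 16 members had a site at their own start, against 11 with 500 bp. Expected numbers were not made for the wider window. Of the 15 promoter sites at an own start, 14 lay upstream of it, and the median distance was 168 bp. Of all 2245 promoter sites 85.0% lay upstream of the nearest start, with a median distance of 135 bp.

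**Figure D4:**
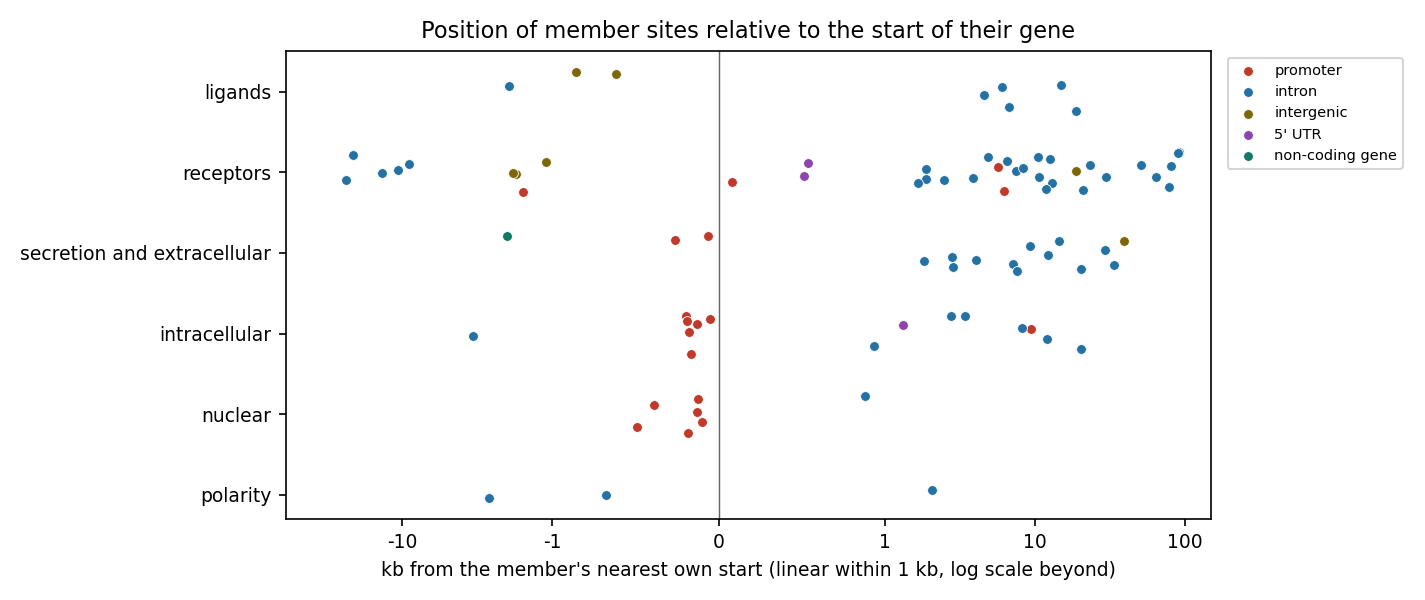
Position of the 88 member sites relative to the nearest own start of their gene, in kb (linear within 1 kb, log scale beyond), by role, with negative values upstream. Points are spread vertically for legibility and coloured by annotation. Promoter sites of intracellular and nuclear genes lie within 500 bp upstream of 0, except that of arm at 9394 bp downstream, and the sites of receptor genes reach 92062 bp downstream.

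Both replicates recovered the members' sites about as often as other sites. Of the 88 sites, 63 (71.6%) were among the 5354 strongest peaks of both replicates, against 72.7% of all sites. There were 3 sites with no peak within 100 bp in replicate 1 and 3 with none in replicate 3. Over the 82 sites matched in both, the log2 ratio of replicate 3 over replicate 1 signal ran from -1.01 to 2.38 with a median of 0.46. Over all 5049 matched sites the median was 0.69. The ratio was above 0 at 61 of the 82 member sites, against 4197 of the 5049. The scale of the signal is not stated, so the ratio compares sites with each other and a value of 0 does not mark equal binding. Among promoter sites the median was 0.65 for members and 0.92 for all sites, and among introns 0.45 and 0.52.

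The 4 highest ratios were those of the pan site 493 bp upstream of the gene (2.38), the lgs site (1.91), the weakest site of fz3 (1.84) and the strongest of Wnt4 (1.73). The 5 lowest were those of the drl site at 1656 bp (-1.01), the CkIalpha site (-0.95), an fz site at 80498 bp (-0.83) and the fz2 sites of rank 3655 (-0.79) and 1830 (-0.78). The strongest sites of gish (0.79), fz (1.13) and nkd (0.79) stood nearer to the median of 0.69 over all sites.

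**Figure D5:**
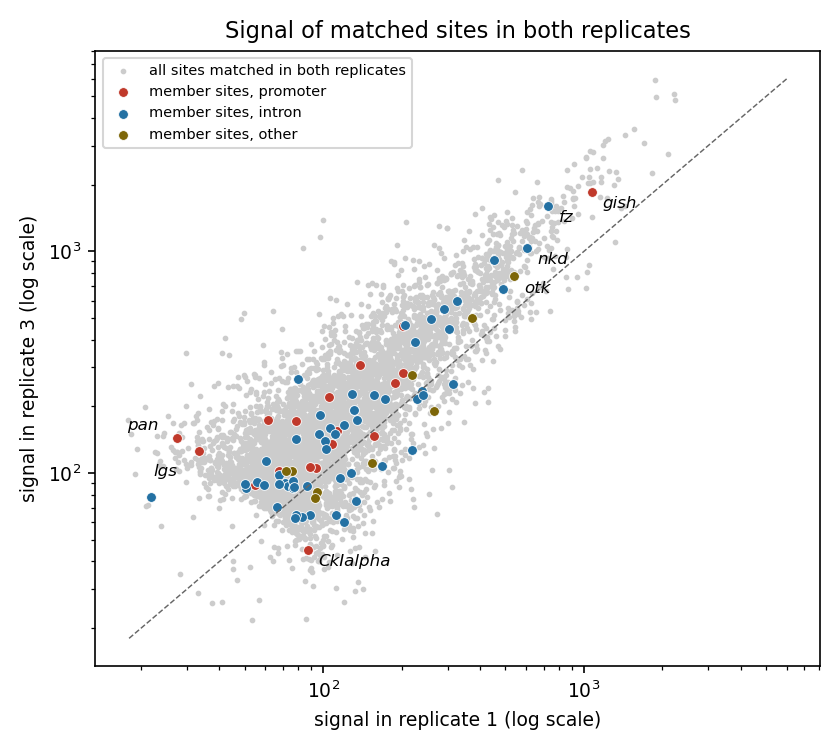
Authors' signal in replicate 1 and replicate 3 (log scales) of the sites matched in both, with member sites coloured as promoter, intron or other over all matched sites in grey. The dashed line marks equal values. Of 82 member sites, 61 lie above the line, and the sites named gish, fz, nkd and otk are high in both replicates.

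Few of the members' sites held a TCF core. Within 150 bp of the summit, CTTTGAT on either strand was found at 6 of 88 sites (6.82%), against 4.76% of all 5354 sites. These were sites of fz2, fz3, sgg, gish, gro and pk. The helper motif GCCGCC of TCF was at 8 sites (9.09%), against 8.29% of all. The gro site with the TCF core held both, the helper motif lying outside the bases printed for it. The homeodomain core TAATTA was at 18 sites (20.5%), against 23.5%, the Zelda motif CAGGTAG at 3 (3.41%), against 1.76%, and the DREF motif TATCGATA at 2 (2.27%), against 4.95%. None of the 5 motifs contains another. The DREF matches were the site near arm, which is the promoter of mRpL16, and that of CkIalpha. A match describes letters within a window and no more. Within 50 bp of the summit the mean GC content was 33.6% at member sites and 32.5% at all sites.

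Other genes of the same pathways had sites about as often as genes of similar length, and their difference from the members was not tested. Of 12 further Wnt pathway genes, 5 had a site, against 5.76 expected. They were dco, which encodes a casein kinase I (rank 549), nmo, the Nemo-like kinase gene (rank 763), Drl-2 (rank 1760), Hipk (rank 3775) and hyx (rank 5178). Of 10 further polarity genes, 4 had a site, against 5.04 expected. The giant cadherin genes ft (rank 293) and ds (rank 1945) were among them, as were mwh (rank 2791), whose site is nearest to the start of LysP, and Rho1 (rank 3842). Of 10 known targets of Wingless signalling that are not members, 4 had a site, against 4.92 expected. They were sr (rank 465), ovo (rank 639), Ubx (rank 735) and vg (rank 1907), while the segment gene en and the limb gene Dll had none. The targets nkd and fz3 are members, with 5 and 4 sites, and are not among these 10. A site within 500 bp of the own start was found for dco, hyx, Hipk, ft and Rho1 and for none of the 10 targets. Of all protein-coding genes 21.4% had one, and these small counts were not tested against that share.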

How the data were processed

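ChIP-seq peak lists on dm6 were used as deposited, per the labels and the deposited notes. The authors called peaks on each replicate and on both together against 1 control alignment and derived the IDR list from these. Which peak caller, version and IDR threshold they used is not given in the sources used here. The signal per peak is the authors' deposited value, on a scale not stated, used within a list or as a ratio between matched sites. The deposited −log10 q value has a ceiling and was not used. All 5354 IDR sites equal the strongest pooled peaks.

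Genes came from Ensembl release 115 and sequence from RefSeq Release 6. WntD was matched through an alternative symbol. Summits within 100 bp were matched between lists. Introns were numbered in the longest transcript. Expected counts average over the 200 genes nearest in length, or over 10 strata of territory length (19.8 of 37 with a site). Wilson intervals (95%) cover counting error only. Scripts ran in Python 3.11.15 with pandas 2.3.3 and scipy 1.17.1, and assignment of sites to genes was tested on simulated data. All 37 members are named. By the rule for named genes, the strongest site is described in full for members with one among the 1338 strongest, members with 4 or more sites are given by range, and other genes are named where they own the nearest start or hold the leading sites of a further list. The members and lists were chosen with earlier results of these data known. The sequence at the strongest site of gish is not reported here.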

Additional observations from a re-analysis of the deposited data

How the results depend on the processing

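The number of members with a site was 26 and 28 when either replicate was used alone, against 28. Replicate 1 alone lost Wnt5, fz4 and lgs and gained pygo, and replicate 3 alone lost CkIalpha and gained Axn. Over the same settings, 13 and 10 members had a site at their own start, 94 and 80 sites lay in member territories, 12 and 9 members had a site among the 1338 strongest, and 10 and 9 had 4 or more sites. The promoter share was 21.3% and 21.2%. In the stronger part of the IDR list 17 members had a site, 7 had one at their own start and 41 sites lay in territories. In the full pooled list 29 members had a peak at their own start, 30 had 4 or more and 455 peaks lay in territories. The promoter share of member sites was 11.8% with gene bodies alone and 31.8% with a promoter window of 1000 bp. With gene bodies alone 22 members had a site, without Wnt5, fz4, arm, Apc, Apc2 and lgs. These counts are not set beside shares over all protein-coding genes at the same settings. They therefore do not show whether the members' excess over genes of similar length holds there. The cause of the shifts between settings was not tested. The other settings stayed within 1.5 times the reported count or within the reported interval. The expected number of members with a site was 19.4 to 20.1 under other ways of taking length into account, the one with 200 genes, like all settings for 4 or more sites, having been chosen after seeing the data. No paired analysis was possible because there is 1 group. Read depth is unknown, so weak sites cannot be judged by it.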
